A study of Mus musculus with 12 samples.

Results

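The 40 genes described here mark the epithelium that covers the embryonic palate. They encode keratins, cell junction proteins, and regulators, sorting proteins and surface proteases of epithelial cells. They were chosen by symbol from the deposited gene counts, as a list of epithelial and periderm genes, and all 40 symbols were found among the 24391 symbols of the counts. Of these 40 genes 39 passed the expression filter and were tested. Krt13, a keratin of mature stratified mucosa, did not pass and is given by its level alone.

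Each palatal shelf is an outgrowth of mesenchyme covered by a thin epithelium. At this stage that epithelium is a basal layer, whose cells make Krt5, Krt14 and Krt15, under a flat outer layer, the periderm, which expresses keratins such as Krt8, Krt18, Krt19, Krt17 and Krt6a. The periderm keeps opposed surfaces of the mouth from sticking together too early, and the shelves can fuse only after it has been removed from their medial edges. Desmosomes and adherens junctions join the epithelial cells to each other, tight junctions seal them, and factors such as Grhl2, Esrp1 and Esrp2 maintain the epithelial state.

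RNA was sequenced from palatal shelves of C57BL/6 mouse embryos at E13.5, in 4 groups of 3 libraries. TAM_AP is anterior palate and TAM_PP posterior palate of the tamoxifen arm, and con_AP and con_PP are the same parts of the palate in controls. Tamoxifen, a drug that binds oestrogen receptors, was the agent, and the study's title names cleft palate in mice as its outcome. No transgene or allele is named for any group, the treatment is described as given to the mice, and the sample labels do not give its dose or timing, what the controls received, or whether a library pools several embryos. The tissue is whole shelf, so in these data fewer epithelial cells and less RNA per epithelial cell cannot be told apart.

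Total counts were 39.4 M to 73.0 M per library, the highest in TAM_AP replicate 1, and 15958 genes were tested. Levels are CPM, read counts relative to the library's total, scaled by TMM, the trimmed mean normalization of edgeR, given as mean ± SD over 3 libraries or by library in the order of replicates 1, 2 and 3. Fold changes are log2 values ± standard error (SE) from edgeR's quasi-likelihood fit, and a gene was called where its p, adjusted by the Benjamini-Hochberg method over the 15958 genes, was under 0.05. The p-values measure only the spread between these samples, since nothing says that the libraries of a group come from separate litters. Summed markers of palatal mesenchyme stood at 12056 to 15721 CPM in TAM_AP and 13268 to 13966 CPM in con_AP. They stood at 15605 to 23865 CPM in TAM_PP and 19896 to 22206 CPM in con_PP. Those of endothelium stood at 536 to 670 CPM in the 12 libraries.

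Promoters of 5 members are shown because these genes recur in the results as the basal keratin Krt5, the periderm keratin pair Krt8 and Krt18, the adhesion molecule Epcam and the desmosomal plaque protein Dsp. The sequences are RefSeq windows of build GRCm38.p6, from 250 bases before to 50 bases after the gene start, written 5′ to 3′ on the strand of the gene. Capitals mark the E-box CACCTG, searched on both strands, the motif bound by the Snail and Zeb repressors of epithelial genes.
Krt5, chr15:101712856-101713155, minus strand: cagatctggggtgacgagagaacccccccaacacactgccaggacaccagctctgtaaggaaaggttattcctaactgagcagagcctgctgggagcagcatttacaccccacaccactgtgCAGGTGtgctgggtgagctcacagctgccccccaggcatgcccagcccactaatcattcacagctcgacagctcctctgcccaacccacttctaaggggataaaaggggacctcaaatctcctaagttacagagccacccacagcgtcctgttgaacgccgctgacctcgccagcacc
Krt8, chr15:102004293-102004592, minus strand: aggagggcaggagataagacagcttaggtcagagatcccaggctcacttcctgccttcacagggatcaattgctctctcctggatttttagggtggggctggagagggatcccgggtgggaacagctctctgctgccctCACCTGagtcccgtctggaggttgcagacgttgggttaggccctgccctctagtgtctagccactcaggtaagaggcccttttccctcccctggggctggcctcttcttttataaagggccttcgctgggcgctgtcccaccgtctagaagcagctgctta
Krt18, chr15:102027966-102028265, plus strand: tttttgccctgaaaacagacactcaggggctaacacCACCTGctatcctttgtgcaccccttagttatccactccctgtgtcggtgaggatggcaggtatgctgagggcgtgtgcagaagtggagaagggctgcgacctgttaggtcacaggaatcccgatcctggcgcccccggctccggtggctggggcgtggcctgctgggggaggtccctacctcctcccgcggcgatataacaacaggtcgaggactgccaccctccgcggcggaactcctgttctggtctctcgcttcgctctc
Epcam, chr17:87635729-87636028, plus strand: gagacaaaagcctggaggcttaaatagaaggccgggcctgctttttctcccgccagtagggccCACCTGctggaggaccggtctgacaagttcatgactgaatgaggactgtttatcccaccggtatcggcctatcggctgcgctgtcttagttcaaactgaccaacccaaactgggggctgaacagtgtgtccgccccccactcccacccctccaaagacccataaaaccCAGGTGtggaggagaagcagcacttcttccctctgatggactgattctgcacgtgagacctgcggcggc
Dsp, chr13:38151044-38151343, plus strand: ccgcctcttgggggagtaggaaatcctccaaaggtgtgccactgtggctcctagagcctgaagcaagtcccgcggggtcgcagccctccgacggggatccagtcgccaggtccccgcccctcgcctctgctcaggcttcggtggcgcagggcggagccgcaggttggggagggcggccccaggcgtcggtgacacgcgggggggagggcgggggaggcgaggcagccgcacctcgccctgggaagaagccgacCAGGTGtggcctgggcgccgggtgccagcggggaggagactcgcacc
Epcam held the motif at 2 positions and the other shown windows at 1 each. Among the 17 members with a RefSeq window within 100 bases of the gene start, 13 held it, 76.5%, against 20.1% of 22803 such windows of all genes and 18.0% of the 8749 windows of tested genes. The 4 members without it were Grhl1, Spint1, Cldn7 and Krt13. The TATA box motif TATAAA, on either strand, was present in 1 of the 17, Krt8, against 7.85% of windows of tested genes, and the grainyhead motif AACCNGTT, on either strand, in 1, Rab25, against 1.79%. The 3 motifs were searched separately, none contains another, and a match describes letters in a window and not a bound site.

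**Figure D1:**
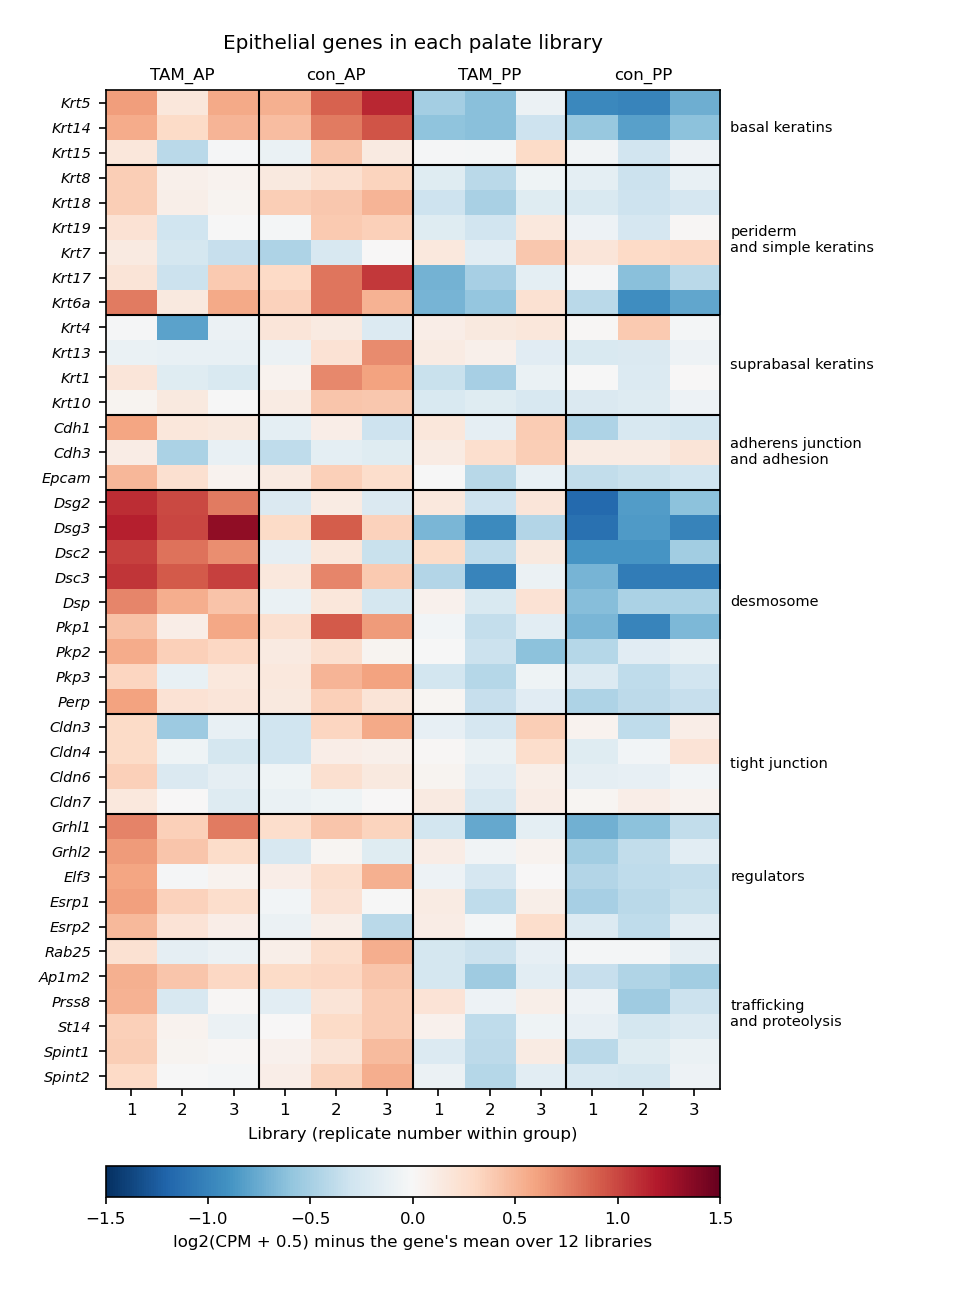
Heat map of all 40 members (rows, grouped by role) in the 12 libraries (columns), as log2(CPM + 0.5) minus the gene's mean over the 12 libraries. Krt5, Krt14 and most desmosome genes were high in anterior and low in posterior libraries, and the desmosomal cadherins Dsg2, Dsg3, Dsc2 and Dsc3 were highest in TAM_AP, where Dsg2 stood at 44.4, 40.8 and 35.0 CPM.

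Levels per length of coding transcript rank the members among themselves. Over all 12 libraries Krt14 had 128 CPM per kb, Krt17 115, Krt5 71.1, Krt15 60.5 and the protease inhibitor Spint2 60.3, followed by Krt8 at 37.2 and Epcam at 33.3 CPM per kb. At the low end stood Dsg3 at 0.228, Krt4 at 0.310 and Krt13 at 0.0896 CPM per kb. Krt4 and Krt13, the keratins of differentiated oral mucosa, were thus the lowest with Dsg3. Some members share sequence with relatives, so the authors' counting could have split their reads: 62.0% of the 50-base words of the Krt6a transcript also occur in other genes, mainly Krt6b, 29.7% of those of Krt8, mainly in the pseudogene Krt8-ps, 14.4% of those of Krt14 in Krt16 and Krt17, and 12.2% of those of Krt5, mainly in Krt6a. Values of Krt6a are uncertain for that reason.

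The anterior shelf held more epithelial transcript than the posterior shelf in both treatments. Under tamoxifen 19 of the 39 tested members were higher in TAM_AP than in TAM_PP, against 7.6% of all genes tested, and 1 was lower, Cdh3, against 10.2% of all genes, so that 20 were called in either direction, against 17.8%. Their median log2 fold change was 0.38, against 0.02 over all genes tested. In controls 24 members were higher in con_AP than in con_PP, against 10.2% of all genes, and 2 were lower, Krt7 and Cdh3, against 13.1% of all genes, so that 26 were called in either direction, against 23.3%, with a median of 0.49 for the members and 0.02 over all genes. The members did not shift by 1 common amount. In controls the log2 fold changes ran from -0.50 for Krt7 to 2.59 for Dsg3.

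**Figure D2:**
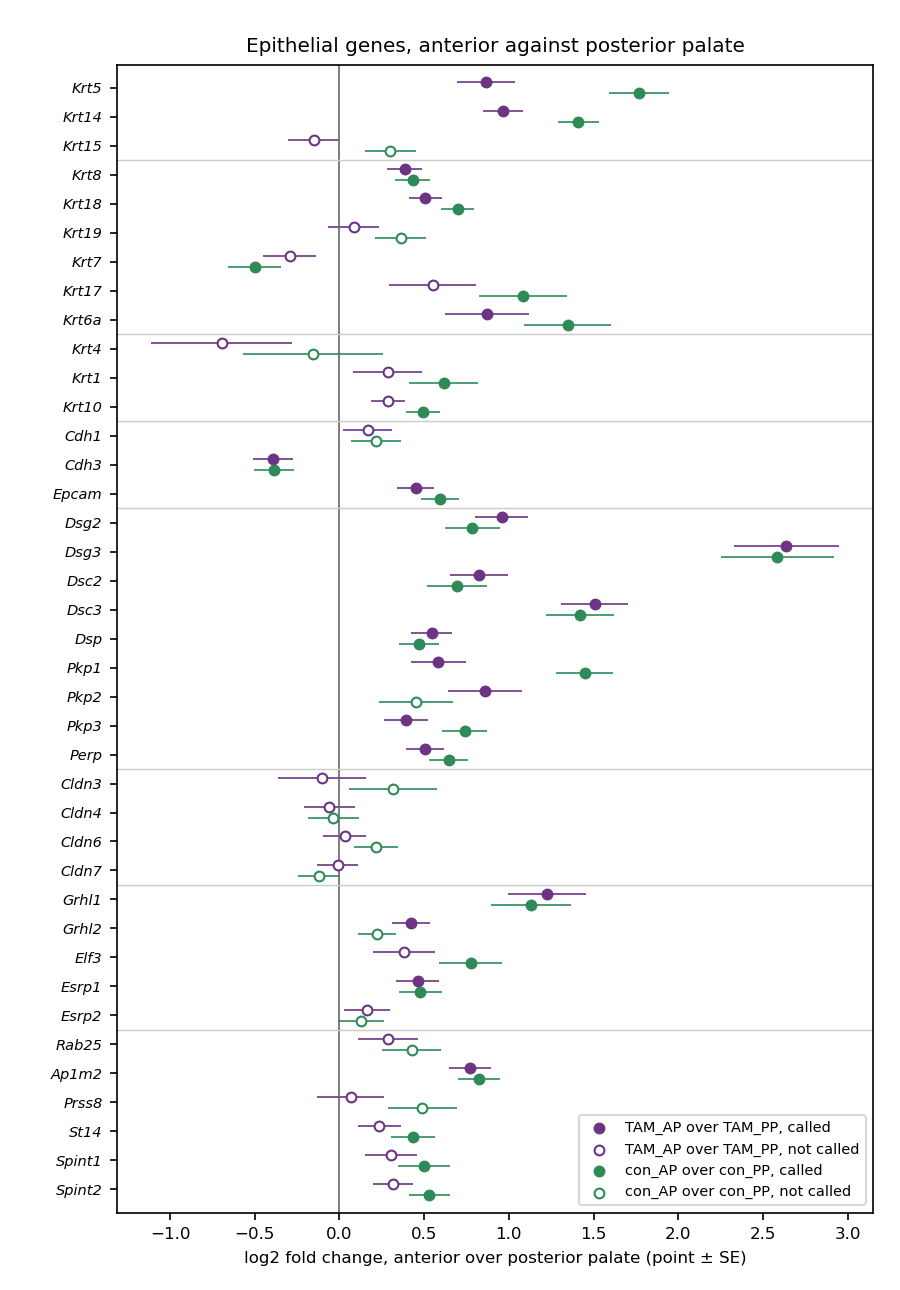
Log2 fold change of the 39 tested members between anterior and posterior palate (points, with SE as bars), TAM_AP over TAM_PP above con_AP over con_PP for each gene, filled where called. Under tamoxifen 19 members were called to the right of 0 and Cdh3 to the left, in controls 24 to the right and Krt7 and Cdh3 to the left, and Dsg3 lay farthest right in both comparisons.

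Of the 20 regional calls under tamoxifen, 11 stayed called whichever of the 12 libraries was left out. The other 9 were Krt8, Krt6a, Cdh3, Epcam, Pkp1, Pkp2, Pkp3, Grhl2 and Esrp1, and their adjusted p reached at most 0.227, for Pkp3 without TAM_AP replicate 1. In controls 17 of 26 calls stayed, and the other 9 were Krt17, Krt1, Krt7, Cdh3, Dsc2, Dsp, Esrp1, St14 and Spint1, with an adjusted p of at most 0.184, for Krt1 without con_AP replicate 2. The tissues around the epithelium also differed between the regions. Summed markers of skeletal muscle stood at 6.19 to 15.1 CPM in TAM_AP against 661 to 930 CPM in TAM_PP, and at 8.06 to 22.9 CPM in con_AP against 546 to 607 CPM in con_PP, with 10 of 10 muscle genes lower anteriorly in both treatments. Cartilage markers summed to 407 to 505 CPM in TAM_AP against 1460 to 2097 CPM in TAM_PP, and to 498 to 560 CPM in con_AP against 2065 to 2269 CPM in con_PP, with 6 of 6 genes lower anteriorly. No marker of either list was at 0 in a whole group. The posterior pieces thus held more muscle and cartilage transcript. Of 12 palatal mesenchyme genes 3 were higher and 6 lower anteriorly in each treatment. The shares of all genes were 7.6% and 10.2% under tamoxifen and 10.2% and 13.1% in controls. The mesenchyme sum was lower in con_AP than in con_PP without overlap, while TAM_AP and TAM_PP overlapped. The part of these differences in the regional values of the epithelial genes was not tested.

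Tamoxifen moved a smaller set of members. In the anterior palate 9 of 39 were higher in TAM_AP than in con_AP, against 25.6% of all genes tested, and 3 were lower, against 24% of all genes, so that 12 of 39 were called in either direction, against 49.7% of all genes. Their median log2 fold change as fitted was -0.04, against -0.02 over all genes. With the trend in transcript length and GC content removed, as described below, it was 0.22, against 0.0098 over all genes. In the posterior palate 9 of 39 were higher in TAM_PP than in con_PP, against 17.3% of all genes, and 0 were lower, against 11.7% of all genes (29% in either direction), with a median of 0.14 against 0.02. In that comparison DESeq2 and limma-voom also called 0 members lower, and 0 of the 39 were lower at an unadjusted p under 0.05. Called higher in both parts of the palate were Dsg2, Dsc2, Dsp, Grhl2, Cdh1, Esrp1 and Esrp2. The anterior list added Dsg3 and Dsc3, and the posterior list added Krt5 and Pkp1.

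**Figure D3:**
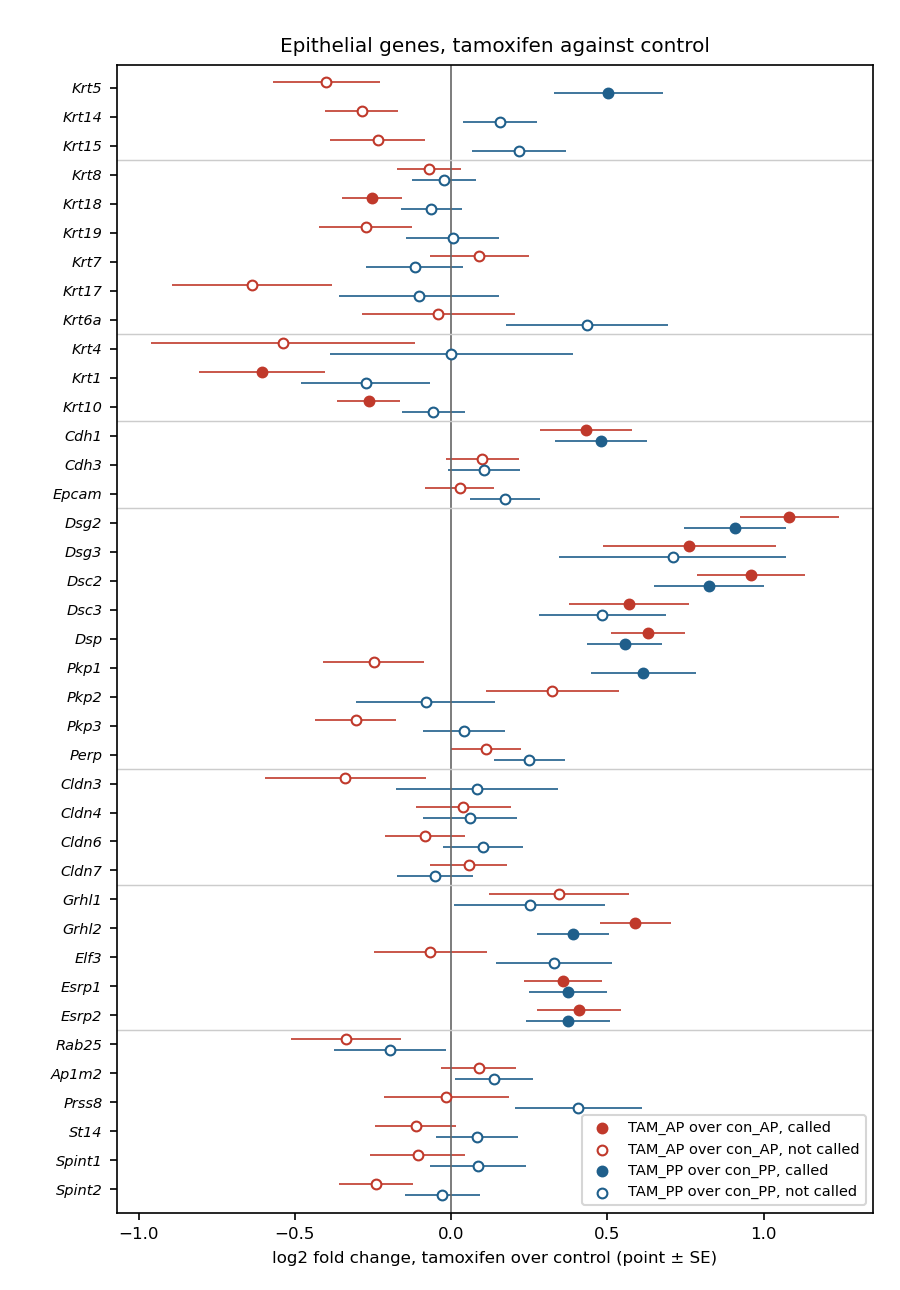
Log2 fold change of the 39 tested members between tamoxifen and control (points, with SE as bars), TAM_AP over con_AP above TAM_PP over con_PP for each gene, filled where called. The desmosomal genes Dsg2, Dsc2 and Dsp lie right of 0 in both parts of the palate, and the basal keratins lie left of 0 anteriorly and right of 0 posteriorly as fitted, but right of 0 in both parts with the length and GC trend removed (Krt5 0.04, Krt14 0.20 and Krt15 0.16 anteriorly).

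Of the 12 anterior calls, those of Dsg2, Dsc2, Dsp and Grhl2 stayed whichever library was left out, and of the 9 posterior calls those of Dsg2, Dsc2 and Dsp. The other 8 anterior calls reached an adjusted p of at most 0.153, for Krt18 without TAM_AP replicate 3, and the other 6 posterior calls at most 0.185, for Esrp1 without TAM_PP replicate 1. The fold changes of all genes also followed transcript length under tamoxifen. Across the 39 members the log2 fold change had a Spearman correlation with transcript length of 0.66 in the anterior and 0.57 in the posterior palate, and across 15847 genes of 0.54 and 0.47, where genes share libraries and are not independent points. Of the 10 members with a transcript of at least 4000 bases 7 were called higher and 0 lower in TAM_AP, and of the 29 shorter ones 2 were called higher and 3 lower. In TAM_PP 6 of the 10 long members and 3 of the 29 shorter ones were higher. Of all genes, of any length, 25.6% were higher and 24% lower anteriorly, and 17.3% and 11.7% posteriorly. Over 10 bins of all genes by length, the anterior median log2 fold change ran from -0.40 (shortest) to 0.59 (longest). The posterior one ran from -0.26 to 0.37. The desmosomal cadherins, Dsp, Cdh1 and Grhl2 are all among the 10 long members.

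**Figure D4:**
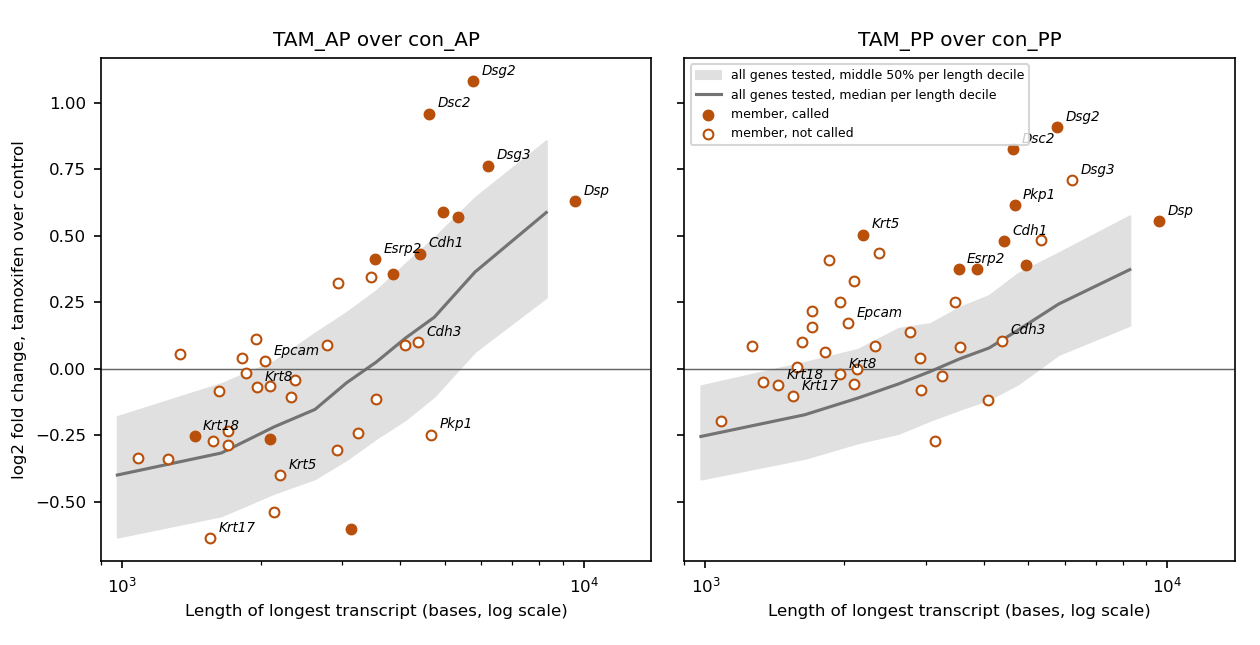
Log2 fold change under tamoxifen against the length of the longest transcript (bases, log scale) for the 39 tested members (points, filled where called), in the anterior (left) and posterior palate (right), over the median and middle 50% of all genes in each of 10 bins of equal gene number along the length range (grey line and band). Long members lie higher than short ones, as the grey line rises with length, and Dsg2 and Dsc2 lie above the band in both panels. With the length and GC trend removed, members of at least 4000 bases had a median of 0.19 and shorter ones of 0.22 anteriorly. Posteriorly these medians were 0.31 and 0.27.

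When the trend with length and GC content was removed from each library, 7 members were higher and 1 was lower in TAM_AP, against 16.1% and 16.5% of all genes and 32.6% in either direction. Of the 12 earlier calls 4 higher and 1 lower were kept: Dsg2, Dsc2, Grhl2 and Esrp2 were higher and Krt1 was lower. Krt8, Cldn4 and Cldn7 were then also called higher. In TAM_PP 8 members were higher and 0 lower with the trend removed, against 7.79% and 10.2% of all genes and 18% in either direction, and 5 of the 9 earlier calls were kept, those of Dsg2, Dsc2, Pkp1, Krt5 and Esrp2. Krt14, Prss8 and Elf3 were then also called higher. With the trend removed the median log2 fold change of the members was 0.22 in the anterior and 0.27 in the posterior palate. Over all genes it was 0.0098 and -0.0033. The log2 fold change of 15 of the 39 members in TAM_AP against con_AP was below 0 as fitted and above 0 with the trend removed, all 3 basal keratins, Krt8, Krt18 and Krt19 among them. Krt18, called lower as fitted, was at -0.25 as fitted and at 0.22 with the trend removed (adjusted p = 0.058). The regional calls moved little. Under tamoxifen 23 members were higher and 1 lower in TAM_AP than in TAM_PP, against 13.9% and 11% of all genes and 24.9% in either direction, and in controls 25 were higher and 2 lower in con_AP than in con_PP, against 14.4% and 12.5% of all genes and 27% in either direction. Kept were 19 higher and 1 lower of the tamoxifen calls and 24 higher and 2 lower of the control calls.

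Krt5 and Krt14 pair to form the filaments of basal epithelial cells. Krt5 stood at 214, 156 and 206 CPM in TAM_AP, 200.3, 256 and 303 in con_AP, 96.7, 89.5 and 130.2 in TAM_PP and 70.7, 69.3 and 83.1 in con_PP. All anterior libraries lay above all posterior ones, TAM_AP overlapped con_AP, and every TAM_PP library lay above every con_PP library. Its log2 fold change was 0.86 ± 0.17 between TAM_AP and TAM_PP (adjusted p = 0.0031) and 1.77 ± 0.18 between con_AP and con_PP (adjusted p = 9.7e-06). For treatment it was 0.50 ± 0.17 in the posterior palate (adjusted p = 0.046), a call that was lost without any of 8 single libraries, con_AP replicate 2, TAM_AP replicates 1 and 3, all 3 of con_PP and TAM_PP replicates 1 and 3, with an adjusted p of at most 0.158, and -0.40 ± 0.17 in the anterior palate (adjusted p = 0.071). Krt14 followed the same regional order, with 293, 242 and 282 CPM in TAM_AP, 275, 341 and 381 in con_AP, 131, 128 and 159 in TAM_PP and 133, 112 and 129 in con_PP. The anterior and posterior libraries did not overlap, with a log2 fold change of 0.97 ± 0.12 under tamoxifen (adjusted p = 1.5e-05) and 1.41 ± 0.12 in controls (adjusted p = 2.4e-07). As fitted, the treatment did not pass the test in either part (adjusted p = 0.053 anterior and 0.34 posterior). With the length and GC trend removed, Krt14 was called higher in TAM_PP than in con_PP (0.41, adjusted p = 0.0028). In the anterior palate it was then at 0.20 and not called. Krt15, a basal keratin of stratified epithelia, behaved otherwise by region. Its levels were 114, 76.4 and 100.1 CPM in TAM_AP, 94.6, 136 and 112 in con_AP, 100.04, 99.3 and 124 in TAM_PP and 98.2, 83.1 and 96.5 in con_PP, groups that overlap except that TAM_PP lay above con_PP. Its regional log2 fold change was -0.15 ± 0.15 under tamoxifen (adjusted p = 0.55) and 0.30 ± 0.15 in controls (adjusted p = 0.17), and no contrast called it.

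Krt8 and Krt18 pair in simple epithelia and periderm. Krt8 stood at 92.6, 75.9 and 74.4 CPM in TAM_AP, 79.6, 84.7 and 90.9 in con_AP, 63.3, 54.1 and 68.9 in TAM_PP and 64.9, 57.4 and 66.7 in con_PP. Krt18 stood at 46.7, 38.4 and 36.9 CPM in TAM_AP, 46.5, 47.8 and 51.3 in con_AP, 28.8, 25.6 and 31.5 in TAM_PP and 30.8, 28.9 and 30.1 in con_PP. The anterior libraries of each lay above the posterior ones in both treatments. Under tamoxifen Krt18 was higher anteriorly by 0.51 ± 0.10 (adjusted p = 0.0011) and Krt8 by 0.38 ± 0.10 (adjusted p = 0.014), of which the call of Krt8 was lost without TAM_AP replicate 1 or TAM_PP replicate 2 (adjusted p of at most 0.107). In controls the differences were 0.70 ± 0.10 for Krt18 (adjusted p = 5.2e-05) and 0.43 ± 0.10 for Krt8 (adjusted p = 0.0054). Krt18 was lower in TAM_AP than in con_AP, at -0.25 ± 0.10 (adjusted p = 0.038). That call was lost in 7 of the 12 fits that leave out 1 library, with an adjusted p of at most 0.153, and the groups overlapped. The log2 ratio of Krt8 to Krt18 was 0.995 ± 0.0155 in TAM_AP, 0.809 ± 0.0288 in con_AP, 1.11 ± 0.0296 in TAM_PP and 1.07 ± 0.0815 in con_PP, so the ratio was lowest in con_AP, where no library overlapped another group.

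Krt17 and Krt6a are keratins of periderm, of epithelial appendages and of stressed epithelium. Libraries of 1 group differed widely for Krt17, with 189.6, 132 and 217 CPM in TAM_AP, 203, 288 and 346 in con_AP, 101, 117 and 149.7 in TAM_PP and 163, 107 and 125 in con_PP. Under tamoxifen the regions overlapped (0.55 ± 0.26, adjusted p = 0.19). In controls it was higher anteriorly by 1.08 ± 0.26 (adjusted p = 0.013), a call lost without con_AP replicate 3 or con_PP replicate 2 at an adjusted p of at most 0.052. The contrast of TAM_AP with con_AP missed the threshold at -0.64 ± 0.26 (adjusted p = 0.063). Krt6a had 12.6, 7.95 and 10.8 CPM in TAM_AP, 9.21, 12.8 and 10.4 in con_AP, 4.200, 4.59 and 8.46 in TAM_PP and 5.28, 3.49 and 3.94 in con_PP. Its regional log2 fold change was 0.87 ± 0.25 under tamoxifen (adjusted p = 0.024), where groups overlapped, and 1.35 ± 0.26 in controls (adjusted p = 0.0014), where they did not. Krt19, another keratin of simple epithelium and periderm, passed no contrast, with 24.4 ± 4.46 CPM in TAM_AP, 29.5 ± 4.69 in con_AP, 23.1 ± 3.90 in TAM_PP and 23.0 ± 2.20 in con_PP. Krt7, a keratin of simple and glandular epithelium, ran the other way, at 12.1, 14.1 and 16.9 CPM in con_AP against 19.1, 20.9 and 21.0 CPM in con_PP, a log2 fold change of -0.50 ± 0.16 (adjusted p = 0.029). This call was lost without con_AP replicate 1 or 2 or con_PP replicate 2 or 3, with an adjusted p of at most 0.089, and Krt7 did not pass between TAM_AP and TAM_PP (-0.29, adjusted p = 0.23).

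Among the suprabasal keratins, Krt1 and Krt10 pair in cells that leave the basal layer. Krt1 stood at 4.57, 3.45 and 3.33 CPM in TAM_AP, 4.14, 6.89 and 6.30 in con_AP, 3.05, 2.66 and 3.66 in TAM_PP and 3.95, 3.37 and 3.98 in con_PP, and 2 of the 3 con_AP libraries lay above all others. It was lower in TAM_AP than in con_AP by -0.60 ± 0.20 (adjusted p = 0.020) and higher in con_AP than in con_PP by 0.62 ± 0.20 (adjusted p = 0.037). Without con_AP replicate 2 the adjusted p was 0.108 for treatment and 0.184 for region. Krt10 had 15.2, 16.4 and 14.8 CPM in TAM_AP, 16.2, 19.8 and 19.6 in con_AP, 12.6, 12.9 and 12.4 in TAM_PP and 12.6, 12.8 and 14.0 in con_PP. It was higher in con_AP than in con_PP (0.49 ± 0.10, adjusted p = 0.0018) and lower in TAM_AP than in con_AP (-0.26 ± 0.10, adjusted p = 0.038), the treatment call being lost without any of 4 libraries (adjusted p of at most 0.134) and at 0.04 with the length and GC trend removed. Krt4 averaged 0.456 ± 0.260 CPM in TAM_AP, 0.678 ± 0.163 in con_AP, 0.756 ± 0.0301 in TAM_PP and 0.759 ± 0.212 in con_PP and passed no contrast. Krt13, which was not tested, stayed between 0.0421 and 0.539 CPM, with the highest value in con_AP replicate 3.

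Cdh1, or E-cadherin, is the adherens junction cadherin of all epithelia. Its levels were 134, 99.7 and 97.9 CPM in TAM_AP, 79.7, 95.1 and 71.2 in con_AP, 99.6, 80.7 and 115 in TAM_PP and 63.8, 75.1 and 72.97 in con_PP, so tamoxifen libraries lay above their controls in both parts without overlap while the regions overlapped. The log2 fold change under tamoxifen was 0.43 ± 0.15 in the anterior (adjusted p = 0.024) and 0.48 ± 0.15 in the posterior palate (adjusted p = 0.025). With the length and GC trend removed these were 0.29 (adjusted p = 0.18) and 0.37 (adjusted p = 0.13), and they were also lost without TAM_AP replicate 1 (0.129, the highest adjusted p of 3 such losses) and without con_PP replicate 1 (0.102, the highest of 4). Epcam, a surface adhesion molecule of epithelia, differed by region and did not pass for treatment. It stood at 94.0, 78.8 and 69.1 CPM in TAM_AP, 72.8, 85.2 and 79.6 in con_AP, 66.2, 49.8 and 61.3 in TAM_PP and 51.3, 52.5 and 53.7 in con_PP. The anterior excess was 0.45 ± 0.11 under tamoxifen (adjusted p = 0.0088, 0.071 without TAM_AP replicate 1) and 0.59 ± 0.11 in controls (adjusted p = 9.7e-04), and the treatment contrasts gave 0.03 ± 0.11 (adjusted p = 0.86) and 0.17 ± 0.11 (adjusted p = 0.26). Cdh3, or P-cadherin, of basal and placodal cells, was the member lower anteriorly in both treatments, with 84.1, 55.9 and 71.6 CPM in TAM_AP, 59.3, 70.1 and 68.2 in con_AP, 84.3, 92.8 and 101 in TAM_PP and 84.3, 84.8 and 89.2 in con_PP. The regions did not overlap at -0.39 ± 0.12 under tamoxifen (adjusted p = 0.026) and -0.39 ± 0.12 in controls (adjusted p = 0.024), and each call was lost without any of 4 libraries, with an adjusted p of at most 0.12 and 0.081.

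Nearly all desmosome genes differed between the regions. In controls 8 of 9 were higher in con_AP than in con_PP, against 10.2% of all genes. Under tamoxifen 9 of 9 were higher in TAM_AP than in TAM_PP, against 7.6% of all genes. Desmogleins and desmocollins are the cadherins of the desmosome. Dsg3, a desmoglein of basal keratinocytes, was low, at 3.04, 2.69 and 3.48 CPM in TAM_AP, 1.44, 2.47 and 1.52 in con_AP, 0.488, 0.319 and 0.669 in TAM_PP and 0.231, 0.382 and 0.290 in con_PP. Every anterior library lay above every posterior one, a 6.23-fold difference under tamoxifen (log2 2.64 ± 0.31, adjusted p = 7.7e-06) and a 6.00-fold difference in controls (log2 2.59 ± 0.33, adjusted p = 2.3e-05). Dsc3, its desmocollin partner in basal cells, was at 32.4, 29.0 and 31.1 CPM in TAM_AP, 16.9, 25.5 and 19.95 in con_AP, 11.04, 7.38 and 14.1 in TAM_PP and 9.13, 7.07 and 7.05 in con_PP, again without overlap between regions, at 1.51 ± 0.20 under tamoxifen (adjusted p = 5.5e-05) and 1.42 ± 0.20 in controls (adjusted p = 1.1e-04). Both also rose in TAM_AP against con_AP, Dsg3 by 0.76 ± 0.28 (adjusted p = 0.031) and Dsc3 by 0.57 ± 0.19 (adjusted p = 0.023). Those calls were lost when the length and GC trend was removed (0.21 and 0.07) and without any of 4 libraries each (con_AP replicates 1 and 3, TAM_AP replicates 1 and 3), with an adjusted p of at most 0.115 and 0.089.

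Dsg2 and Dsc2, the desmosomal cadherins found in simple as well as layered epithelia, had the largest treatment differences of the set as fitted. With the length and GC trend removed Esrp2 (0.66) was above both in the anterior palate and Krt5 (0.72) and Prss8 (0.65) in the posterior palate. Dsg2 stood at 44.4, 40.8 and 35.0 CPM in TAM_AP, 17.4, 22.2 and 17.3 in con_AP, 22.7, 16.2 and 23.1 in TAM_PP and 8.75, 11.1 and 13.1 in con_PP. The tamoxifen libraries lay above their controls in both parts, 2.12-fold in the anterior (log2 1.08 ± 0.16, adjusted p = 5.7e-05) and 1.88-fold in the posterior palate (log2 0.91 ± 0.16, adjusted p = 0.0013). With the trend removed the values were 0.65 (adjusted p = 0.0070) and 0.63 (adjusted p = 0.019). Dsc2 moved in parallel, at 36.6, 31.4 and 28.9 CPM in TAM_AP, 16.0, 19.97 and 13.9 in con_AP, 21.7, 13.4 and 19.6 in TAM_PP and 9.32, 9.36 and 12.2 in con_PP. Its log2 fold change was 0.96 ± 0.17 (adjusted p = 3.2e-04) and 0.83 ± 0.18 (adjusted p = 0.0039), and 0.56 and 0.56 with the trend removed (adjusted p = 0.024 and 0.042). Both were also higher anteriorly in each treatment, Dsg2 by 0.96 and 0.78 and Dsc2 by 0.83 and 0.69 (TAM_AP over TAM_PP and con_AP over con_PP), of which the call of Dsc2 in controls was lost without con_AP replicate 2 or con_PP replicate 2 (adjusted p of at most 0.068).

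Dsp, or desmoplakin, which ties the plaque to keratin filaments, had 418, 369 and 339.7 CPM in TAM_AP, 236, 282 and 209.6 in con_AP, 264, 215 and 293 in TAM_PP and 162, 182 and 182 in con_PP. It was higher under tamoxifen without overlap, by 0.63 ± 0.12 (adjusted p = 4.4e-04) and 0.56 ± 0.12 (adjusted p = 0.0038), but by 0.17 (adjusted p = 0.28) and 0.25 (adjusted p = 0.16) with the length and GC trend removed, and its transcript is the longest of the set at 9592 bases. Between regions it differed by 0.54 under tamoxifen and 0.47 in controls (adjusted p = 0.0036 and 0.0092, the second 0.088 without con_AP replicate 2). Pkp1, a plakophilin that strengthens desmosomes of stratified epithelia, stood at 23.0, 18.0 and 25.3 CPM in TAM_AP, 19.9, 32.4 and 26.4 in con_AP, 16.3, 13.0 and 15.0 in TAM_PP and 10.3, 8.19 and 10.4 in con_PP. It rose in TAM_PP against con_PP by 0.62 ± 0.17 (adjusted p = 0.013, and 0.067 without TAM_PP replicate 1), whereas TAM_AP and con_AP overlapped at -0.25 ± 0.16 (adjusted p = 0.22). The regional difference was 0.58 ± 0.16 under tamoxifen (adjusted p = 0.019, and 0.095 without TAM_PP replicate 2) and 1.45 ± 0.17 in controls (adjusted p = 8.7e-06). Of the other plaque members, Pkp3 ranged from 18.6 to 38.4 CPM, the tetraspan protein Perp from 30.7 to 64.6 CPM and Pkp2 from 1.29 to 3.57 CPM. Pkp3 and Perp were higher anteriorly in both treatments (Pkp3 0.39 and 0.74, Perp 0.51 and 0.65, under tamoxifen and in controls), Pkp2 under tamoxifen (0.86), and none of the 3 passed a treatment contrast.

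The 4 claudins of the set, seal and barrier proteins of tight junctions, passed no contrast. Cldn4, the highest of them with Cldn6, stood at 51.1, 39.97 and 34.5 CPM in TAM_AP, 33.7, 44.8 and 43.9 in con_AP, 42.2, 38.9 and 49.95 in TAM_PP and 36.8, 40.6 and 48.2 in con_PP. Its regional log2 fold change was -0.06 ± 0.15 under tamoxifen and -0.04 ± 0.15 in controls, with adjusted p of 0.84 and 0.89. Across all libraries Cldn6 ranged from 34.3 to 51.4 CPM, Cldn7 from 9.82 to 13.1 CPM and Cldn3 from 4.77 to 10.9 CPM. With the length and GC trend removed Cldn7 (0.56, adjusted p = 0.0028) and Cldn4 (0.50, adjusted p = 0.034) were called higher in TAM_AP than in con_AP. Whether the regional difference of claudins is smaller than that of keratins or desmosome genes was not tested.

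Grhl2, a grainyhead transcription factor that switches on epithelial junction genes, rose under tamoxifen in both parts. It stood at 40.9, 35.0 and 31.7 CPM in TAM_AP, 22.02, 26.6 and 22.9 in con_AP, 28.1, 25.1 and 27.1 in TAM_PP and 18.0, 20.1 and 23.3 in con_PP, without overlap between treatments. Its log2 fold change was 0.59 ± 0.11 in the anterior palate (adjusted p = 4.7e-04) and 0.39 ± 0.11 in the posterior palate (adjusted p = 0.019, and 0.098 without con_PP replicate 1), and with the trend removed 0.35 (adjusted p = 0.019) and 0.22 (adjusted p = 0.17). Its relative Grhl1 was a regional gene instead, with 4.04, 2.95 and 4.13 CPM in TAM_AP, 2.75, 3.12 and 2.90 in con_AP, 1.74, 1.08 and 1.94 in TAM_PP and 1.14, 1.27 and 1.60 in con_PP. The regions did not overlap, at 1.22 ± 0.23 under tamoxifen (adjusted p = 9.8e-04) and 1.13 ± 0.24 in controls (adjusted p = 0.0023), and treatment did not pass in either part. Esrp1 and Esrp2 are splicing factors that keep epithelial isoforms, and loss of Esrp1 gives cleft lip and palate in mice. Esrp2 had 25.7, 20.9 and 19.5 CPM in TAM_AP, 17.0, 19.3 and 13.51 in con_AP, 19.6, 17.7 and 21.8 in TAM_PP and 15.6, 13.8 and 16.1 in con_PP. The tamoxifen libraries lay above their controls, by 0.41 ± 0.13 (adjusted p = 0.018, and 0.113 without TAM_AP replicate 1) and 0.37 ± 0.13 (adjusted p = 0.047, lost in 9 of 12 fits that leave out 1 library, up to 0.162), and by 0.66 and 0.48 with the trend removed (adjusted p = 0.0016 and 0.023). Esrp1 averaged 56.5 ± 7.59 CPM in TAM_AP, 44.1 ± 4.41 in con_AP, 41.1 ± 7.59 in TAM_PP and 31.7 ± 1.86 in con_PP, higher under tamoxifen by 0.36 and 0.37 (adjusted p = 0.026 and 0.036), though not with the trend removed (adjusted p = 0.20 and 0.17). It was higher anteriorly in both treatments (0.46 under tamoxifen and 0.48 in controls). Elf3, an Ets factor of differentiating epithelium, was higher in con_AP than in con_PP (0.78 ± 0.19, adjusted p = 0.0060) and passed no other contrast as fitted. With the length and GC trend removed it was also called higher in TAM_PP than in con_PP.

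The last group holds proteins of membrane sorting and of a surface protease cascade. Ap1m2, the medium chain of the epithelial AP-1B adaptor that sorts basolateral proteins, stood at 13.6, 12.5 and 11.6 CPM in TAM_AP, 11.4, 11.6 and 12.6 in con_AP, 7.64, 6.27 and 8.23 in TAM_PP and 7.19, 6.64 and 6.28 in con_PP. Every anterior library lay above every posterior one, at 0.77 ± 0.12 under tamoxifen (adjusted p = 1.9e-04) and 0.82 ± 0.12 in controls (adjusted p = 1.1e-04), and the treatment contrasts gave 0.09 and 0.14 (adjusted p = 0.57 and 0.43). Spint2 and Spint1, inhibitors of the membrane protease St14 (matriptase), and St14 itself were higher in con_AP than in con_PP. Spint2 had 87.7, 104 and 119.9 CPM in con_AP against 69.6, 67.9 and 78.0 CPM in con_PP (0.53 ± 0.12, adjusted p = 0.0041). The differences were 0.50 ± 0.15 for Spint1 and 0.43 ± 0.13 for St14 (adjusted p = 0.027 and 0.024, and 0.146 and 0.117 without con_AP replicate 3). None of these 3 passed between TAM_AP and TAM_PP. Prss8 (prostasin), the protease activated alongside St14, and Rab25, a small GTPase of epithelial recycling, passed no contrast as fitted. Prss8 was at 4.46 to 9.79 CPM and Rab25 at 2.72 to 5.39 CPM. As fitted, no member of the group passed a treatment contrast. With the length and GC trend removed only Prss8 did, being higher in TAM_PP than in con_PP.

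An epithelium index was taken per library from 12 members chosen as general epithelial markers. They were Cdh1, Epcam, Esrp1, Esrp2, Grhl2, Rab25, Ap1m2, Spint1, Spint2, St14, Prss8 and Cldn7, and their expression by layer was not tested. The index, the mean of their log2(CPM + 0.5), is given without a test. It was 4.70 ± 0.203 in TAM_AP, 4.61 ± 0.111 in con_AP, 4.41 ± 0.178 in TAM_PP and 4.24 ± 0.0366 in con_PP (mean ± SD, n = 3). The anterior index exceeded the posterior one by 0.29 under tamoxifen and by 0.37 in controls, without overlap of libraries, and the tamoxifen groups overlapped their controls, with differences of 0.09 in the anterior and 0.18 in the posterior palate. With the length and GC trend removed these differences were 0.23 in each part, and the groups still overlapped. TAM_AP replicate 1, the deepest library, had the highest value, 4.93, and without it the anterior treatment difference was -0.02. Against the regional shift of 0.37 in controls, the differences of Krt5 at 1.77, Krt14 at 1.41, Pkp1 at 1.45 and Dsg3 at 2.59 were larger, and those of Cdh1 at 0.21 and the claudins smaller, on the same log2 scale.

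**Figure D5:**
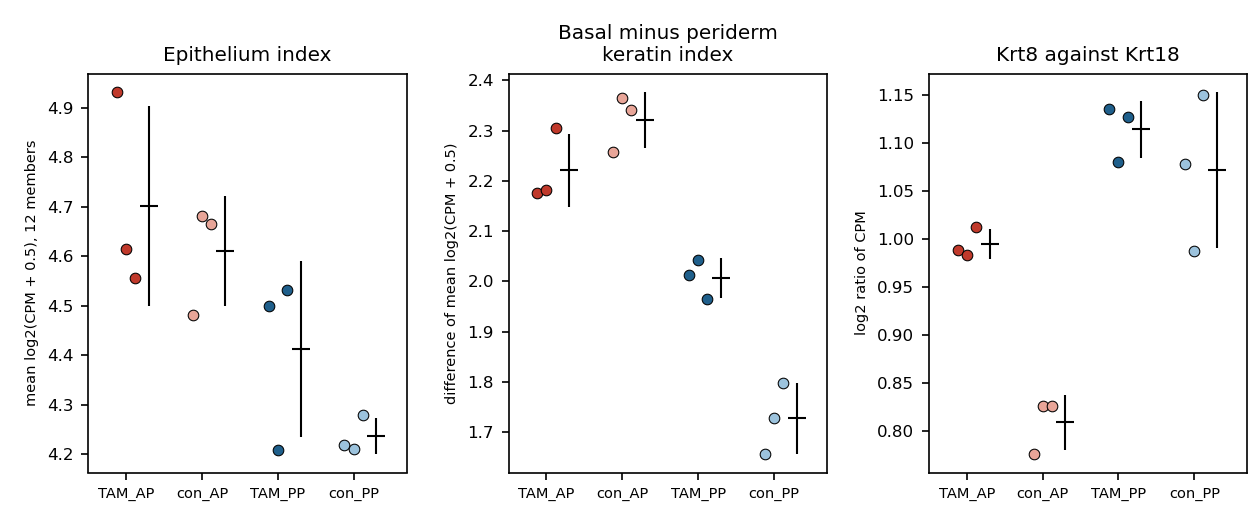
Epithelium index, basal minus periderm keratin index and log2 ratio of Krt8 to Krt18 per library (points) for TAM_AP, con_AP, TAM_PP and con_PP, with mean and SD (bars beside the points), on axes that do not start at 0. Within each treatment the epithelium index was higher in anterior than in posterior libraries, and the basal minus periderm index was lowest in con_PP, at 1.73 ± 0.0713.

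Basal keratins were set against keratins of a periderm side within each library. Krt7, a keratin of simple and glandular epithelium, was counted on the periderm side, although it ran the other way by region in controls. The difference taken was the mean log2(CPM + 0.5) of Krt5, Krt14 and Krt15 minus that of Krt8, Krt18, Krt19, Krt7, Krt17 and Krt6a. The difference was 2.22 ± 0.0729 in TAM_AP, 2.32 ± 0.0562 in con_AP, 2.01 ± 0.0396 in TAM_PP and 1.73 ± 0.0713 in con_PP. Every TAM_PP library (1.96 to 2.04) lay above every con_PP library (1.66 to 1.80), a difference of 0.28, and both posterior groups lay below both anterior ones. In the anterior palate TAM_AP was 0.10 below con_AP and the groups overlapped. As fitted, that direction depended on the members and turned with Cdh3, Dsg3 and Dsc3 added to the basal side. TAM_AP was then 0.27 above con_AP without overlap. The anterior calls of Dsg3 and Dsc3 were lost with the length and GC trend removed, and this wider index is given only as fitted. Without those 3 genes, TAM_AP was at -0.04 relative to con_AP with the trend removed. As fitted, the mean of the 3 basal keratins was 0.28 higher in TAM_PP than in con_PP. That of the 6 keratins on the periderm side was 0.01 higher. With the length and GC trend removed, the median log2 fold change there was 0.44 for the basal and 0.21 for the periderm side. The index difference was then 0.32, without overlap. As fitted, the choice of periderm keratins mattered. Against Krt17 and Krt6a alone the regional difference was -0.14 under tamoxifen and -0.02 in controls, with overlap, and the posterior treatment difference was 0.16, also with overlap. Against Krt8, Krt18, Krt19 and Krt7 alone it was 0.39 under tamoxifen and 0.90 in controls, and 0.34 for posterior treatment, each without overlap.

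Whether tamoxifen acted differently on a member in the anterior and the posterior palate was tested as an interaction. No member and 0 of 15958 genes passed in edgeR, where 3 members and 2110 genes had an unadjusted p under 0.05. The 3 members were Pkp1 (-0.86 ± 0.23, adjusted p = 0.22), Krt5 (-0.90 ± 0.24, adjusted p = 0.22) and Krt14 (-0.44 ± 0.17, adjusted p = 0.31), all with a lower treatment effect in the anterior than in the posterior palate. DESeq2 called 2 members, Pkp1 and Krt5, among 183 genes, and limma-voom called 0. For the desmosomal cadherins the interaction was 0.17 ± 0.23 for Dsg2, 0.13 ± 0.25 for Dsc2, 0.09 ± 0.28 for Dsc3 and 0.05 ± 0.50 for Dsg3, each within its SE of 0.

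Of 36 other genes of the epithelial programme, listed alongside the members, 12 were higher and 2 lower in TAM_AP than in con_AP, against 25.6% and 24% of all genes, and 11 higher and 0 lower in TAM_PP than in con_PP, against 17.3% and 11.7%. Between regions 15 were higher and 3 lower anteriorly under tamoxifen, against 7.6% and 10.2% of all genes, and 20 higher and 3 lower in controls, against 10.2% and 13.1%. Trp63, the master factor of stratified epithelium, averaged 83.1 ± 7.97 CPM in TAM_AP, 51.5 ± 5.57 in con_AP, 42.2 ± 5.72 in TAM_PP and 27.7 ± 2.76 in con_PP. It was higher under tamoxifen by 0.69 ± 0.11 and 0.61 ± 0.11 (adjusted p = 1.0e-04 and 0.0015), calls that did not hold with the length and GC trend removed (0.21 and 0.31, adjusted p = 0.12 and 0.050), and higher anteriorly by 0.98 ± 0.11 under tamoxifen and 0.89 ± 0.11 in controls. Genes of hemidesmosomes and basement membrane, which anchor the basal layer, were also among those called under tamoxifen. As fitted, Itga6 was at 0.69 ± 0.09 and 0.60 ± 0.09 and Lama3 at 0.93 ± 0.13 and 0.76 ± 0.13 in the anterior and posterior palate. Of the higher calls of the 36 genes, 8 of 12 anterior and 9 of 11 posterior ones were kept with the trend removed. Cldn1, a claudin outside the set of 40, was lower anteriorly, at 5.43 ± 0.327 CPM in TAM_AP against 30.1 ± 5.16 in TAM_PP (-2.47 ± 0.13, adjusted p = 7.6e-10) and 4.70 ± 0.426 in con_AP against 18.6 ± 1.40 in con_PP (-1.99 ± 0.13, adjusted p = 1.3e-08). The AP-2 factors Tfap2a and Tfap2c, which neural crest and mesenchyme also express, were higher anteriorly in controls by 1.95 ± 0.11 and 1.94 ± 0.12.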

How the data were processed

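The deposited files hold raw counts per gene symbol, 1 file per library. The tools named are HISAT2 and StringTie, and the build mm9, per the submitters' processing notes. How reads were counted, with which annotation, strand setting and versions, is not given in the sources used here, and even values made up 57.1 to 60.1% of counts of 1 to 100, and whether both mates of a pair were counted is not stated. Groups follow the sample titles. From the counts, R 4.3.3 and edgeR 4.0.16 (filterByExpr, TMM, robust quasi-likelihood fit, 1 mean per group over 12 libraries, 8 residual degrees of freedom) gave 5 contrasts, with Benjamini-Hochberg adjustment over all genes tested. Exact tests of 3 against 3 values cannot go below p = 0.1, so levels and indices have no test. Alternatives were DESeq2 1.42.0, limma-voom (limma 3.58.1), other scalings, filters and sample sets, the replicate number as a block, leaving out each library, and removal per library of a trend with transcript length and GC content (natural splines, 4 degrees of freedom each, GENCODE transcripts of a newer build). The fits were tested on simulated data. Members and lists were chosen with earlier results of these data known. All members are accounted for by role, with values in every library for up to 3 members per role and contrast (smallest adjusted p) and always for Krt5, Krt14, Krt15, Krt8, Krt18, Krt17, Krt6a, Cdh1 and Epcam, and up to 4 genes per contrast of each other list (other epithelial genes, tooth germ and oral placode, nasal and ciliated epithelium, mesenchyme, endothelium, muscle, nerve, leukocytes, cartilage and erythroid cells) are named, always Trp63. Some genes named by this rule are not reported here. Replicate pairs differed by a chi-square of 10.3 to 50.0 per degree of freedom, and each library was counted as its own sample. Promoters are RefSeq windows matched by symbol.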

Additional observations from a re-analysis of the deposited data

How the results depend on the processing

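Of the members' counts, those of calls lower under tamoxifen in the anterior palate (3) moved most: 6 with DESeq2, 5 with upper quartile scaling, 1 without a filter, 7 with the replicate number as a block, 1 with the length and GC trend removed, 0 with trend and block, and 0 with the trend taken from coding transcripts, a setting chosen after seeing the data. Genes called overall were 5171, 5017 and 4530 under these 3 trend settings in the anterior palate (7924 as fitted) and 2857, 2713 and 2379 in the posterior palate (4625 as fitted). Of the 15 members that turned in direction in TAM_AP against con_AP with the trend removed, those called as fitted or with the trend removed were, under the same 3 settings, Krt8 (0.39, 0.38 and 0.38, adjusted p = 0.0036, 0.0046 and 0.0049), Krt18 (0.22, 0.21 and 0.22, adjusted p = 0.058, 0.068 and 0.062) and Krt10 (0.038, 0.040 and 0.015, adjusted p = 0.79, 0.78 and 0.93). Members lower in con_AP than in con_PP (2) were 1 with trend and block and 1 with coding transcripts, and those lower in TAM_AP than in TAM_PP (1) were 0 with only the 6 libraries of the comparison. For the interaction DESeq2 called 2 members lower and 183 genes, and trend with block 1 gene. The basal minus periderm index changed with its members, not with the pseudocount: without Krt17 and Krt6a it differed by -0.17, 0.34, 0.39 and 0.90 (TAM_AP against con_AP, TAM_PP against con_PP, TAM_AP against TAM_PP, con_AP against con_PP), with those 2 alone on the periderm side by 0.041, 0.16, -0.14 and -0.022, and with Cdh3, Dsg3 and Dsc3 on the basal side by 0.27, 0.27, 0.43 and 0.43. All these index values were as fitted, and the cause of the changes was not tested. Leaving out 1 library at a time gave 4 to 10 members higher and 0 to 10 lower in TAM_AP against con_AP, 3 to 10 higher in TAM_PP against con_PP, 18 to 26 higher and 0 to 2 lower in con_AP against con_PP, 11 to 20 higher and 0 to 1 lower in TAM_AP against TAM_PP, and 2714 to 5485 genes for TAM_PP against con_PP and 0 to 6 for the interaction. Same-numbered libraries of different groups deviated with correlations of -0.06 to 0.15. Between TAM_AP and TAM_PP these were 0.15, -0.01 and 0.14 for replicates 1, 2 and 3. With 3 libraries per group such values cannot settle whether the numbers in the sample titles pair the samples. The main fit treated the libraries as unpaired. The headers inside the files carry other numbers, by which pairing was not tested. The block changed the count of calls by over 1.5 times for the members lower in the anterior palate, and not for the other member counts. Halved counts, chosen after seeing the excess of even values, left every count of members within 1.5 times. Low members such as Dsg3, Krt4 and Krt13 are limited by depth, and no batch is given in the sample labels.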

Other observations

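Of 7 genes of tooth germ and oral placode epithelium tested, 3 were higher in TAM_AP than in TAM_PP, against 7.6% of all genes, and 5 in con_AP than in con_PP, against 10.2%. Edar, the ectodysplasin receptor of placodes, averaged 2.87 ± 0.256 CPM in TAM_AP, 3.42 ± 0.294 in con_AP, 2.13 ± 0.268 in TAM_PP and 1.26 ± 0.187 in con_PP (mean ± SD, n = 3). In edgeR it was higher in con_AP than in con_PP by 1.44 ± 0.20 (log2 ± SE, adjusted p = 4.1e-05) and rose in TAM_PP against con_PP by 0.76 ± 0.20 (adjusted p = 0.010). Sox2 and Shh, both also expressed outside placodes, were 1.03 ± 0.15 and 1.01 ± 0.18 higher in con_AP than in con_PP. The part of these transcripts in the regional difference of the keratins was not tested.

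Genes of nasal and ciliated epithelium split by region. Cldn10 was 2.31 ± 0.28 and Foxj1, the factor of motile cilia, 1.55 ± 0.29 higher in con_AP than in con_PP (adjusted p = 1.2e-05 and 7.9e-04). Foxa2, a factor of endoderm and respiratory epithelium, was lower in con_AP, at -2.47 ± 0.43 (adjusted p = 4.1e-04). Of 6 tested, 3 were higher and 1 lower in con_AP, against 10.2% and 13.1% of all genes, and their sum with Dnah5 and Muc5b, which were not tested, was 30.6 to 44.0 CPM in TAM_AP, 30.0 to 38.5 in con_AP, 30.2 to 40.8 in TAM_PP and 24.9 to 30.1 in con_PP. Between TAM_AP and TAM_PP 2 were higher, Cldn10 and Tekt1, and 1 lower, Foxa2 (-2.88 ± 0.42). In TAM_AP against con_AP Foxa1 rose by 0.52 ± 0.18 and Foxj1 fell, at -0.90 ± 0.28. With the length and GC trend removed the call of Foxa1 was kept and that of Foxj1 was lost.

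The lists of other cell types gave these counts of calls under tamoxifen against control, as fitted. Of all genes 25.6% were higher and 24% lower anteriorly, and 17.3% higher and 11.7% lower posteriorly. Leukocyte and macrophage genes had 4 higher and 0 lower anteriorly and 3 higher and 0 lower posteriorly of 8 tested. Genes of neurons and Schwann cells had 2 higher and 1 lower anteriorly and 3 higher and 0 lower posteriorly of 9 tested. Endothelial genes had 4 higher and 4 lower anteriorly and 4 higher and 2 lower posteriorly of 9 tested. Mesenchyme genes had 4 higher and 4 lower anteriorly and 2 higher and 2 lower posteriorly of 12 tested. Cartilage genes had 1 higher and 1 lower anteriorly and 0 higher and 0 lower posteriorly of 6 tested. Skeletal muscle genes had 0 higher and 3 lower anteriorly and 2 higher and 0 lower posteriorly of 10 tested. Erythroid genes had 0 higher and 2 lower anteriorly and 0 higher and 0 lower posteriorly of 5 tested. With the length and GC trend removed, leukocyte genes had 4 higher and 0 lower anteriorly, and 1 and 0 posteriorly. In that order neurons and Schwann cells had 2 and 1, and 1 and 0, and endothelium 3 and 2, and 3 and 0. Mesenchyme had 1 and 1, and 1 and 1, and cartilage 1 and 0, and 0 and 0. Muscle had 0 and 0, and 4 and 0, and erythroid genes 0 and 1, and 0 and 0. Of all genes 16.1% were then higher and 16.5% lower anteriorly, and 7.79% and 10.2% posteriorly. The part of these cell types in the treatment values of the epithelial genes was not tested.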
